A study of Mus musculus with 6 samples.

Results

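*Fank1*, *Sult1d1* and *Sectm1b* are 3 of the 20483 genes measured in cultured tracheal epithelial cells of mice with and without a missense mutation in *Dnaaf5*. They were chosen by symbol with the difference between the genotypes in multiciliated cells already known, so that difference is described here without a p-value. Primary tracheal cells of 3 *WT/WT* and 3 *MIS/MIS* C57BL/6 mice, each 12 weeks old, had been grown at an air-liquid interface, dissociated and profiled by droplet scRNA-Seq, in which a unique molecular identifier (UMI) marks each captured transcript. *MIS/MIS* mice carry the missense allele of *Dnaaf5*, a gene for a cytoplasmic factor that assembles axonemal dynein arms, on both chromosomes. The labels name no treatment in either genotype. The mice are named WT1, WT2 and WT3 (*WT/WT*) and MT1301, MT1306 and MT1383 (*MIS/MIS*), and values listed by mouse follow this order.

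Airway multiciliated cells carry many motile cilia, whose axonemes are moved by dynein arms, and secretory and basal cells are the other main cells of this epithelium. *Fank1* encodes a protein with a fibronectin type III domain and ankyrin repeats, and is best known from testis. *Sult1d1* encodes a cytosolic sulfotransferase, an enzyme that moves a sulfo group from the donor PAPS to small molecules such as phenols and catecholamines. *Sectm1b* belongs to the small Sectm1 family of secreted and transmembrane proteins, whose known receptor is CD7 on lymphocytes.

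In the GENCODE M21 annotation of GRCm38, *Fank1* (ENSMUSG00000053111.13) is a plus-strand gene of chromosome 7, 133776861 to 133881532, with 11 exons and a protein of 344 amino acids. *Sult1d1* (ENSMUSG00000029273.10) lies on the minus strand of chromosome 5 from 87554645 to 87569027, with 8 exons and 295 amino acids. *Dnaaf5* itself is on the same chromosome, from 139150223 to 139186510. *Sectm1b* (ENSMUSG00000039364.13) lies on the minus strand of chromosome 11 from 121053458 to 121063569 and encodes 212 amino acids, and its paralog *Sectm1a* lies beside it from 121067407 to 121081220. The 250 bases before a RefSeq start of each gene (GRCm38.p6) are shown. They were searched because 2 kinds of factor that act in multiciliated cells, the RFX and forkhead families, bind known letters. The windows are chr7:133776641-133776890 on the plus strand for *Fank1*, chr5:87569007-87569256 on the minus strand for *Sult1d1* and chr11:121063570-121063819 on the minus strand for *Sectm1b*, and capitals mark a match to a spaced X-box pattern, which is GTT, 2 free bases, C, 2 free bases, G, 2 free bases and AAC.
Fank1: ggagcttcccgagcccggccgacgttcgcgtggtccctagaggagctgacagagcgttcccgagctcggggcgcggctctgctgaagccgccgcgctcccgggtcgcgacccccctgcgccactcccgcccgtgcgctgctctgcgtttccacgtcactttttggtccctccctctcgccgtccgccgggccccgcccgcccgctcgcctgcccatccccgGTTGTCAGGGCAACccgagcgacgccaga
Sult1d1: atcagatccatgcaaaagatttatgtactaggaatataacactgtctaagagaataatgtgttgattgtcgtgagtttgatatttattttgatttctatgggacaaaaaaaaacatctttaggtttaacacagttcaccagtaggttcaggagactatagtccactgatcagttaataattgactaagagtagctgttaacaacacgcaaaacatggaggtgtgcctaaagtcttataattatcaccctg
Sectm1b: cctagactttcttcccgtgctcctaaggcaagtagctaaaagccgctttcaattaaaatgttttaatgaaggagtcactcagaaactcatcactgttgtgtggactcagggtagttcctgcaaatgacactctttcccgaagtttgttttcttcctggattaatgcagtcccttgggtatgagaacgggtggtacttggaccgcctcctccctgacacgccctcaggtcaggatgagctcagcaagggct

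The *Fank1* window held 1 match, GTTGTCAGGGCAAC, which begins 29 bases before the start used for the window. It spans 133776862 to 133776875 and so lies wholly inside the gene as GENCODE draws it. The RefSeq span of the whole gene also begins before the match. This spaced pattern was chosen after the sequence had been seen, and 0.673% of 27025 promoters of the same length held it. Of 15 promoters searched from an axonemal list, 0 held it. That list also names the transcription factors *Foxj1*, *Rfx2* and *Rfx3*. The last letters of the *Fank1* match include GGCAAC, the reverse complement of GTTGCC, which 10.5% of promoters held, among them 6 of the 15 from that list. *Sult1d1* and *Sectm1b* had no match to either, and none of the 3 windows held the forkhead letters GTAAACA on either strand. Those letters were held by 3.09% of promoters and by 1 of the 15 from the axonemal list. The windows also differed in base composition, with 73.6% GC and 35 CpG in *Fank1*, 34% GC and 2 CpG in *Sult1d1* and 48.4% GC and 6 CpG in *Sectm1b*, against medians of 52% and 6 over all promoters. The last bases of the *Fank1* and *Sult1d1* windows lie inside the gene in GENCODE. Those of the *Fank1* and *Sectm1b* windows lie inside the RefSeq span of the gene. A match is a run of letters and does not show binding.

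The mice contributed 2673 to 6710 cells and 100961835 to 153326568 UMIs each, 23871 cells in all. Levels are in CPM, a gene's UMIs divided by all UMIs of the same cells and scaled to a common total, and since each molecule is counted at 1 end they are not divided by length. The authors divided the cells into 16 types, of which the 4 multiciliated subclusters held 1108 (Multiciliated1), 857 (Multiciliated2), 2712 (Multiciliated3) and 146 cells (Multiciliated4). In Multiciliated3 the summed level of the 6 multiciliated markers was 4470 to 4977 CPM in *WT/WT* and 4592 to 4697 CPM in *MIS/MIS* mice. The 5 secretory markers summed to 2954 to 4070 and 3385 to 4205 CPM there, and the 3 immune markers to 322 to 2667 and 848 to 1521 CPM, with *Ptprc*, the marker of all white blood cells among them, at 0. Each of these 2 sums was nearly 1 gene. Pooled over mice, *Cyp2f2*, which was highest in Basal8, was at 3487 CPM in Multiciliated3, and the other secretory markers were at most 109 CPM. *Lyz2* was at 1097 CPM and *Cd3e* at 0.054 CPM. The 3 basal markers summed to 19.9 to 53.6 and 11.6 to 22.2 CPM in Multiciliated3. *Dnaaf5* was at 64.4, 58.6 and 72.7 CPM in *WT/WT* and 75.4, 68.6 and 70.8 CPM in *MIS/MIS* Multiciliated3 cells, so the groups overlapped, as they did in Multiciliated2 and Multiciliated4. In Multiciliated1 its means were 16.9 ± 2.72 and 24.3 ± 1.64 CPM (SD, n = 3 mice), with every *MIS/MIS* mouse higher. The mice of the genotypes did not overlap for 7.82% of genes there. A missense change need not alter the level of *Dnaaf5*. Over all multiciliated cells the marker sums separated the genotypes, with basal markers at 35.6 to 51.0 CPM in *WT/WT* and 12.0 to 27.7 CPM in *MIS/MIS* mice and multiciliated markers at 3035 to 3159 and 3178 to 3811 CPM. In Multiciliated1 the basal markers were at 18.1 to 40.7 CPM in *MIS/MIS* mice, and higher in every *WT/WT* mouse, up to 64.6 CPM. Multiciliated markers in Multiciliated2 were at 2191 to 2372 CPM in *WT/WT* and 2380 to 2827 CPM in *MIS/MIS* mice. Early multiciliated markers in Multiciliated4 were at 11.4 to 15.8 and 16.2 to 23.4 CPM. Their part in the differences between the genotypes was not tested. There were 67 barcodes that occurred in more than 1 mouse.

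*Fank1* was a transcript of multiciliated cells. Its mean over mice was 135 CPM in Multiciliated4 (70.1 to 220.0 CPM), 103 in Multiciliated3 (68.3 to 145), 33.3 in Multiciliated2 (20.7 to 45.3) and 23.8 in Multiciliated1 (15.8 to 43.0). The ranges of Multiciliated4 and Multiciliated3 overlapped, as did those of Multiciliated2 and Multiciliated1. In every other cell type the mean was at most 1.27 CPM, and none of 28 ionocytes held a UMI, which allows up to 12.1% of cells with a UMI (Wilson 95% interval, counting error only) and sets no limit on the cells that express the gene. Of these 28 cells 19 came from MT1383. A UMI of *Fank1* was found in 82.5% of Multiciliated3 cells, against 1.68% of secretory and 1.44% of basal cells, at median depths of 26360, 32690 and 26312 UMIs per cell. Among the basal types the share ran from 0.437% in Basal8 to 2.27% in Basal1. Whether these low shares reflect expression or background was not tested. Multiciliated4 cells were shallower than Multiciliated3 cells, with medians of 10197 against 26360 UMIs per cell and 1.29% against 8.51% mitochondrial. A *Fank1* UMI was found in 66.4% of Multiciliated4 cells, a lower share than in Multiciliated3. With cells thinned to an equal depth, the shares were 42.3% in Multiciliated4 and 34.2% in Multiciliated3. The part of depth in the CPM order of these subclusters was not tested. Because the clusters were made from the same cells, no cell type was tested against another.

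*Sult1d1* was not limited to multiciliated cells. It was highest in Multiciliated4, at a mean of 679 CPM (342 to 1221), followed by Multiciliated3 at 350 CPM (230 to 469), Multiciliated1 at 285 CPM (205 to 372) and Secretory1 at 118 CPM (67.5 to 165). Adjacent ranges overlapped among the first 3 of these, and Secretory1 lay below Multiciliated1 in all mice. A UMI was found in 47.9% of the shallower Multiciliated4 cells and 51.9% of Multiciliated3 cells. With cells thinned to an equal depth, the shares were 44.8% and 41.4%. Multiciliated2, the cluster with the highest early multiciliated markers, had 11.6 CPM (6.90 to 20.4), below Basal2 at 42.6 CPM (24.4 to 71.9). The gene was near its lowest in Basal4, at 1.98 CPM, where 4.84% of cells held a UMI and no cell more than 8.

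*Sectm1b* was highest in Multiciliated3, at a mean of 48.5 CPM (26.5 to 67.9). Multiciliated1 at 19.0 CPM (12.7 to 37.0) and Multiciliated4 at 18.2 CPM (9.74 to 37.4) overlapped with each other, and Multiciliated2 was at 3.78 CPM (2.58 to 5.41). Outside multiciliated cells the highest mean was 2.43 CPM in Basal7, and 1 mouse reached 10.8 CPM there. In Basal4 11.4% of cells held a UMI, but WT1 supplied 1048 of its 1365 cells, and without WT1 the share was 3.15%. In Basal3 it was 0.593%.

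**Figure D1:**
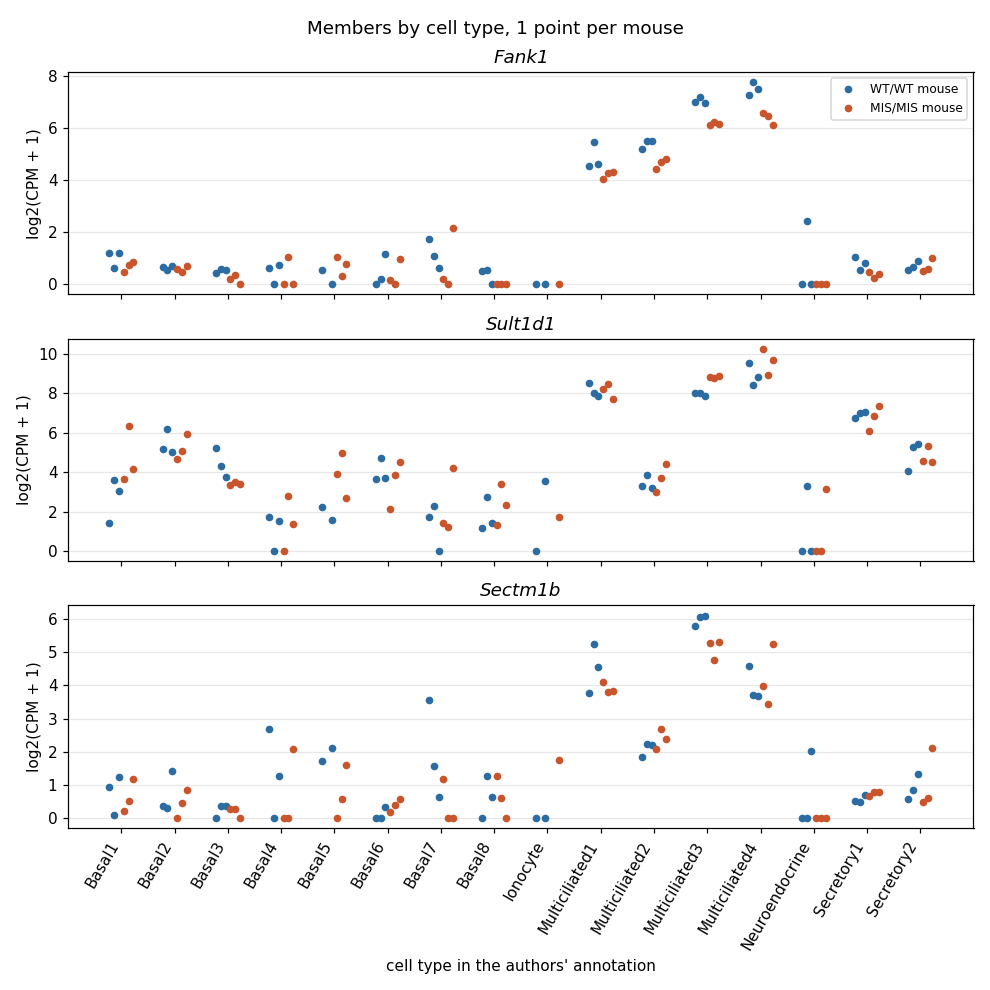
Level of each gene in the 16 cell types, as log2(CPM + 1), with 1 point per mouse in blue for *WT/WT* and orange for *MIS/MIS*; types without cells of a mouse lack its point. *Fank1* and *Sectm1b* are highest in the multiciliated columns, and *Sult1d1* is high also in Secretory1, with a mean of 118 CPM.

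The genes whose level followed each of the 3 most closely over the 16 cell types were found by Pearson's r of log2(CPM + 1), pooled over mice, among 11736 genes. For *Fank1* they were *Eno4* (r = 0.998), *Drc3* (0.997), *Morn3* (0.996), *Dnaic1* (0.996) and *2410004P03Rik* (0.996), of which *Dnaic1* encodes an intermediate chain of the outer dynein arm and *Drc3* a subunit of the nexin-dynein regulatory complex. For *Sult1d1* they were *Ifitm1* (0.949), *Magix* (0.911), *Adig* (0.898), *Sec14l3* (0.890) and *Megf6* (0.879). For *Sectm1b* they were *Pdxk* (0.937), *Gm10522* (0.930), *Ulk4* (0.922), *P2rx6* (0.921) and *Fn3krp* (0.921). The 16 points share their libraries, and these values are a description only.

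*Fank1* was lower in *MIS/MIS* than in *WT/WT* mice in each multiciliated subcluster, and the mice of the genotypes overlapped in none. In Multiciliated3, the levels were 130, 145 and 127 CPM in *WT/WT* and 68.3, 75.0 and 70.5 CPM in *MIS/MIS* mice. The means were 134 ± 9.94 and 71.3 ± 3.37 CPM (SD, n = 3 mice), a fitted log2 fold change of -0.91 (SE 0.080). All *MIS/MIS* mice lay within a narrow band far below the lowest *WT/WT* mouse.

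In the other subclusters the *MIS/MIS* mice were also the lower ones. In Multiciliated1, *Fank1* was at 22.6, 43.0 and 23.9 CPM against 15.8, 18.6 and 19.1 CPM, with a log2 fold change of -0.71 (SE 0.21). In Multiciliated2 it was at 36.1, 45.0 and 45.3 CPM against 20.7, 25.2 and 27.6 CPM, with a log2 fold change of -0.81 (SE 0.15). In Multiciliated4, with 6 to 52 cells a mouse, it was at 156, 220.0 and 182 CPM against 94.7, 87.6 and 70.1 CPM. Over all multiciliated cells the means were 80.9 ± 3.41 and 49.6 ± 8.68 CPM (SD, n = 3), a log2 fold change of -0.75 (SE 0.12), and the multiciliated and basal marker sums of these cells did not overlap either.

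*Sult1d1* was higher in *MIS/MIS* mice in Multiciliated3 and not separated in the other subclusters. In Multiciliated3 the levels were 254, 255 and 230 CPM in *WT/WT* and 457, 434 and 469 CPM in *MIS/MIS* mice. The means were 246 ± 14.0 and 454 ± 17.8 CPM (SD, n = 3), a log2 fold change of 0.88 (SE 0.072), and the highest *WT/WT* mouse was far below the lowest *MIS/MIS* mouse. In Multiciliated1 the levels were 372, 254 and 228 CPM against 298, 351 and 205 CPM, so the groups overlapped fully, with a log2 fold change of -0.054 (SE 0.24). Secretory markers in this subcluster were above those of Multiciliated3, at 9629 to 12532 CPM in *WT/WT* and 10728.5 to 13217 CPM in *MIS/MIS* mice. Multiciliated markers were below, at 788 to 1588 and 1223 to 1298 CPM. Their part in the *Sult1d1* level was not tested. In Multiciliated2 the log2 fold change was 0.25 (SE 0.41), and the mice ranged from 6.90 to 20.4 CPM. In Multiciliated4 the levels were 739, 342 and 451 CPM against 1221, 484 and 836 CPM, and 1 *MIS/MIS* mouse lay below the highest *WT/WT* mouse. Whether the effect differed between subclusters was not tested. Over all multiciliated cells the means were 195 ± 43.8 and 322 ± 42.7 CPM, a log2 fold change of 0.72 (SE 0.18), which was 1.05 without Multiciliated1 cells.

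*Sectm1b* was lower in *MIS/MIS* mice in Multiciliated3, the subcluster where it is highest. The levels were 54.4, 65.6 and 67.9 CPM in *WT/WT* and 38.2, 26.5 and 38.5 CPM in *MIS/MIS* mice, without overlap. The means were 62.7 ± 7.20 and 34.4 ± 6.86 CPM (SD, n = 3), a log2 fold change of -0.89 (SE 0.14). In Multiciliated1 the levels were 12.7, 37.0 and 22.4 CPM against 16.03, 13.1 and 13.1 CPM, with 1 *WT/WT* mouse below every *MIS/MIS* mouse (log2 fold change -0.74, SE 0.30). In Multiciliated2 the log2 fold change was 0.20 (SE 0.30), and in Multiciliated4 the levels of 22.9, 12.2 and 11.9 CPM overlapped with 14.9, 9.74 and 37.4 CPM, each resting on 1 to 8 UMIs. Over all multiciliated cells the means were 35.2 ± 6.65 and 22.6 ± 1.25 CPM, a log2 fold change of -0.65 (SE 0.13).

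**Figure D2:**
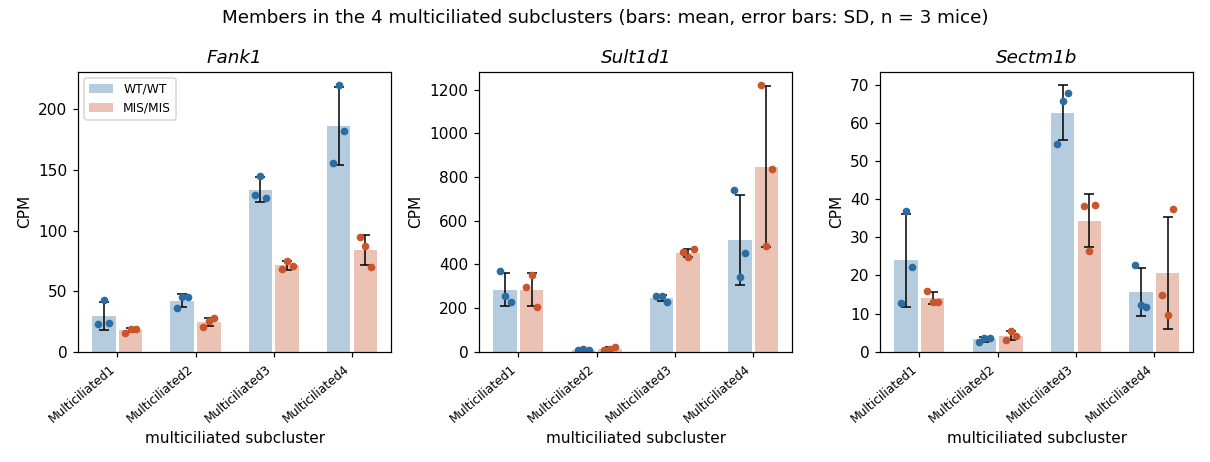
CPM of each gene in the 4 multiciliated subclusters, with bars at the mean of 3 mice, error bars of 1 SD and a point per mouse, blue for *WT/WT* and orange for *MIS/MIS*. *Fank1* is lower in *MIS/MIS* mice in all 4 subclusters, and *Sult1d1* (246 against 454 CPM) and *Sectm1b* (62.7 against 34.4 CPM) are separated in Multiciliated3.

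For scale, the voom fit in limma, Benjamini-Hochberg adjusted, called 3 of 13096 genes in Multiciliated3 (0.0229%), *Sult1d1*, *Fank1* and *Wdfy1*, and 1 of 14206 genes, *Wdfy1*, over all multiciliated cells (0.00704%). The mice of the genotypes did not overlap for 9.61% of genes in Multiciliated3, 10% over all multiciliated cells, 7.82% in Multiciliated1, 7.77% in Multiciliated2 and 10% in Multiciliated4. At an unadjusted p under 0.05 there were 589 genes in Multiciliated3. Since the 3 genes were chosen on this contrast, nothing is read from their calls. With each mouse given the same subcluster composition, the log2 differences over all multiciliated cells were -0.90 for *Fank1*, 0.66 for *Sult1d1* and -0.81 for *Sectm1b*. The fitted log2 fold changes without this step were -0.75, 0.72 and -0.65. The part of composition was not tested.

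Within Multiciliated3 each gene was also described by the share of cells with a UMI and by its level in those cells. These measures are not independent, because at few UMIs per cell a lower level also lowers the share. *Fank1* was found in 94.2%, 95.2% and 94.0% of *WT/WT* cells and 79.3%, 89.3% and 73.9% of *MIS/MIS* cells. With each cell thinned to 5000 UMIs, which left out no cell, the shares were 46.9%, 50.9% and 45.6% against 27.9%, 31.1% and 29.6%. In the cells with a UMI, the level was 135, 150.5 and 133 CPM against 83.7, 82.1 and 91.5 CPM. Both the share and the level in those cells were lower, with no overlap in either.

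*Sult1d1* was uneven from cell to cell. In *WT/WT* mice 30.1%, 42% and 37.0% of Multiciliated3 cells held a UMI, and in *MIS/MIS* mice 57.7%, 53.6% and 58.0%. Thinned, the shares were 23.5%, 29.7% and 25.9% against 47.7%, 41.5% and 47.9%. In the cells with a UMI, the level was 878, 614 and 606 CPM against 800, 790 and 835 CPM, and the groups overlapped. The genotypes were thus separated in the share of cells and not in the level of those cells, whose means were 699 ± 155 and 808 ± 23.8 CPM (SD, n = 3). That overlap came from WT1 alone, since WT2 and WT3 lay below every *MIS/MIS* mouse.

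The distribution of *Sult1d1* had many empty cells beside cells with many copies. Cells with 10 or more UMIs made up 22.0%, 22.8% and 21.9% of Multiciliated3 cells in *WT/WT* and 42.3%, 33.7% and 34.7% in *MIS/MIS* mice. Cells with 1 to 9 UMIs were fewer, at 8.09%, 19.2% and 15.1% against 15.5%, 19.9% and 23.3%. The most UMIs in 1 cell were 183 in Multiciliated3 and 227 in Multiciliated1. In Multiciliated1 the share with a UMI was already 39.0%, 50% and 51.0% in *WT/WT* and 61.1%, 50.6% and 50.3% in *MIS/MIS* mice, so the groups overlapped.

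**Figure D3:**
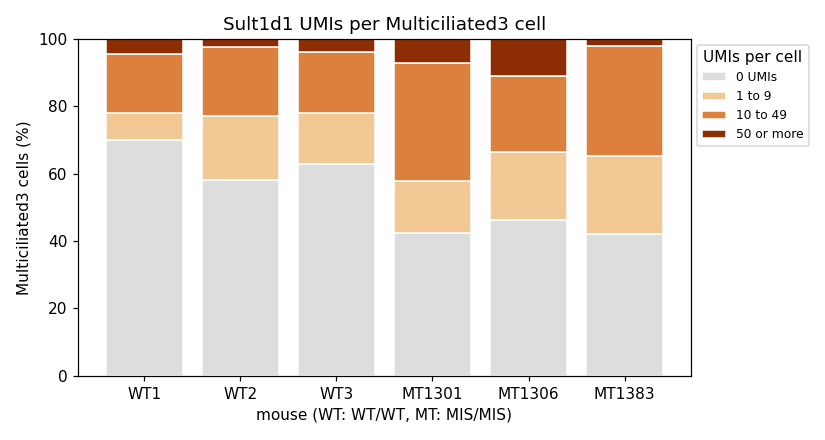
Share of Multiciliated3 cells of each mouse with 0, 1 to 9, 10 to 49 and 50 or more *Sult1d1* UMIs, stacked to 100%. Cells with no UMI make up 58% or more in the *WT/WT* mice and 46.4% or less in the *MIS/MIS* mice.

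*Sectm1b* was found in 53.8%, 50.8% and 50.9% of *WT/WT* and 43.8%, 32.4% and 34.9% of *MIS/MIS* Multiciliated3 cells. Thinned, the shares were 19.7%, 22.8% and 19.97% against 14.7%, 9.95% and 14.1%. In the cells with a UMI the level was 98.5, 126 and 123 CPM against 86.2, 76.7 and 102 CPM, with 1 *MIS/MIS* mouse above the lowest *WT/WT* mouse.

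**Figure D4:**
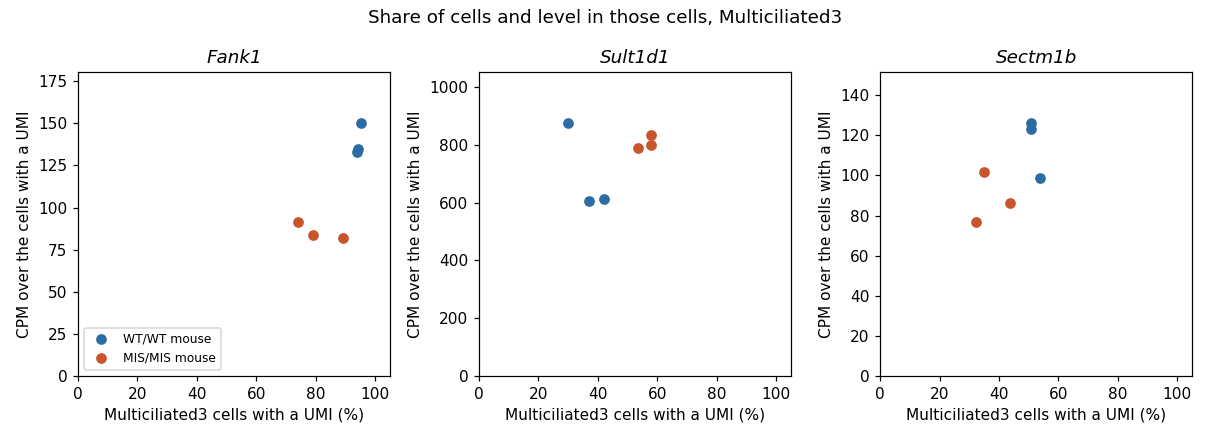
Share of Multiciliated3 cells with a UMI (x, percent) against the CPM over those cells (y) for each mouse, blue for *WT/WT* and orange for *MIS/MIS*. *Fank1* is separated on both axes, and *Sult1d1* on the share alone, with levels of 606 to 878 CPM in *WT/WT* and 790 to 835 CPM in *MIS/MIS* mice.

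The Multiciliated3 cells with 10 or more *Sult1d1* UMIs were set beside those with 0 in each mouse, as a description. Their median depth was similar, for example 33356 and 37127 UMIs in WT1 and 29942 and 29776 in MT1301. Their *Fank1* level had no shared direction, at 150 and 123 CPM in WT1 and 64.8 and 71.6 CPM in MT1301. Multiciliated markers summed to less in the *Sult1d1*-rich cells of all 6 mice. The sums were 4145, 4299, 4244, 4403, 4394 and 4348 CPM against 4975, 5400, 4611, 4930, 4721.5 and 4783 CPM. Secretory markers summed to more in all 6 mice, for example 4137 against 4128 CPM in WT1 and 4353 against 3539 CPM in MT1306. *Sectm1b* was lower in the *Sult1d1*-rich cells of all 6 mice, at 39.0, 53.1, 34.3, 36.1, 16.9 and 27.4 CPM against 62.1, 76.1, 80.4, 42.3, 35.5 and 47.8 CPM in the cells with 0. The genotypes kept their order within each kind of cell for *Fank1*, with every *WT/WT* value above every *MIS/MIS* value. Over cells, Spearman's rho between *Sult1d1* and *Sectm1b* lay between -0.19 and 0.026 within a mouse, which is weak.

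In secretory and basal cells, which were not used to choose the genes but come from the same mice, no member passed the test. In secretory cells *Sult1d1* had means of 86.7 ± 18.1 CPM in *WT/WT* and 92.1 ± 52.4 CPM in *MIS/MIS* mice (SD, n = 3), with a log2 fold change of -0.042 (SE 0.39, limma adjusted p = 0.999743). In Secretory1 alone the mice were at 106, 127 and 131 CPM against 67.5, 113 and 165 CPM, and the *MIS/MIS* mice lay on both sides. *Sectm1b* (log2 fold change 0.12, SE 0.37) was below 1 CPM in the mean of both genotypes. *Fank1* had means of 0.714 and 0.389 CPM, both below 1 CPM, with a log2 fold change of -0.74 (SE 0.30, limma adjusted p = 0.999743). Its genotypes did not overlap, as for 5.5% of the genes tested. Of 13610 genes tested in secretory cells 1 was called (0.00735%).

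In basal cells *Sult1d1* had means of 12.7 ± 7.02 and 23.1 ± 13.1 CPM (SD, n = 3), a log2 fold change of 0.73 (SE 0.66, limma adjusted p = 0.999934). Basal2 had the highest basal level, at 35.3, 71.9 and 31.6 CPM in *WT/WT* and 24.4, 32.8 and 59.4 CPM in *MIS/MIS* mice, with overlap, and 2489 of the 5614 basal UMIs. The mice differed in how their basal cells fell into clusters, with 1295 Basal2 cells in MT1383 and 204 in WT2, so the means over all basal cells also carry that difference. In Basal1 the levels were 1.65, 11.2 and 7.20 CPM in *WT/WT* and 11.5, 79.6 and 17.2 CPM in *MIS/MIS* mice, and in Basal3 they were 35.9, 18.8 and 12.4 CPM against 9.12, 10.2 and 9.58 CPM. The genotypes did not overlap in either, as for 12.6% of genes in Basal1 and 9.05% in Basal3, and in Basal1 the nearest mice were at 11.2 and 11.5 CPM. *Sectm1b* (log2 fold change -1.10, SE 1.00) and *Fank1* (-0.76, SE 0.48) did not pass in basal cells either, and over all basal cells the genotypes overlapped for all 3 genes. In limma's voom test 0 of 14615 genes were called in basal cells (0%), 334 had an unadjusted p under 0.05, and 7.96% did not overlap.

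Genes that act with the 3 were looked up from lists, and no listed gene passed in any comparison by limma's adjusted p. Of the other cytosolic sulfotransferases, 6 of 9 were tested in multiciliated cells, with 3 higher and 3 lower and a median log2 fold change of 0.016, against 0.0066 for all genes. *Sult1b1*, the neighbour of *Sult1d1*, was at 43.0 ± 2.68 and 40.3 ± 6.03 CPM in Multiciliated3, a log2 fold change of -0.083 (SE 0.12). Of the genes that make, carry or break down PAPS, 6 were tested in Multiciliated3, with 4 higher and 2 lower and a median of 0.072, among them *Papss1* (0.14), which makes PAPS, and *Bpnt1* (0.11), which acts on its product.

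*Sectm1a* was at 4.98, 4.04 and 10.6 CPM in *WT/WT* and 2.32, 2.03 and 3.47 CPM in *MIS/MIS* Multiciliated3 cells, without overlap, a log2 fold change of -1.25 (SE 0.37) that did not pass (limma adjusted p = 0.978). As close paralogs side by side, *Sectm1a* and *Sectm1b* may share reads, so their values may not be fully separate, which was not tested. *Cd7*, the receptor gene, was at 5.80 ± 3.13 and 4.70 ± 0.739 CPM (log2 fold change -0.17, SE 0.30). The 12 interferon-responsive genes had a median log2 fold change of -0.097 in Multiciliated3, with 4 higher and 8 lower, and *Ifit1* was at 218 ± 74.5 and 235 ± 70.9 CPM. The 9 genes of the AP-1 and Jab1 list had a median of -0.11, with 2 higher and 7 lower, and *Jun* was at 236 ± 69.4 and 241 ± 57.2 CPM.

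The axonemal list held 18 genes, among them those of the transcription factors *Foxj1*, *Rfx2* and *Rfx3*. These genes, which share cell types with *Fank1*, had a median log2 fold change of 0.058 in Multiciliated3, with 14 higher and 4 lower. Over all multiciliated cells it was 0.19, with 16 higher and 2 lower. Of all genes tested, 49.2% and 51.5% were higher. More of the listed genes were also higher than lower outside multiciliated cells. In secretory cells, where these genes are low, the median was 0.34 with 16 higher and 1 lower, and in basal cells 0.26 with 14 higher and 3 lower. Of all genes, 48.4% and 48.0% were higher there. The summed level of the list overlapped between the genotypes in both. In secretory cells it was 40.9, 42.8 and 35.2 CPM in *WT/WT* and 38.1, 44.5 and 59.5 CPM in *MIS/MIS* mice. In basal cells it was 30.2, 32.3 and 35.7 CPM against 31.1, 37.8 and 52.3 CPM. MT1383 was the highest mouse in both, and the part of this mouse was not tested. *Dnaic1*, which had nearly the same pattern as *Fank1* over cell types, was at 63.9 ± 6.63 and 64.4 ± 8.68 CPM in Multiciliated3, a log2 fold change of 0.018 (SE 0.12). *Foxj1*, a transcription factor of motile cilia, was at 347 ± 18.1 and 345 ± 17.6 CPM.

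No gene within 500 kb of the 3 passed the test in Multiciliated3. *Dhx32* overlaps *Fank1* on the opposite strand and was at 41.1 ± 1.93 and 40.3 ± 5.36 CPM in Multiciliated3 (log2 fold change -0.044, SE 0.11). The 4 neighbours of *Fank1* tested there had a median of -0.013, and the 34 of *Sectm1b* a median of -0.045. For *Sult1d1* only *Sult1b1* was high enough to test.

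**Figure D5:**
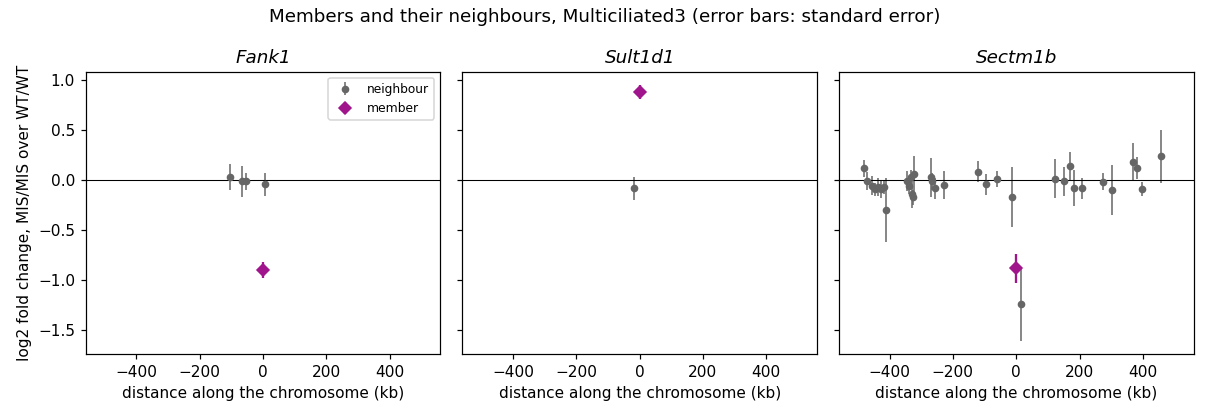
Log2 fold change of *MIS/MIS* over *WT/WT* in Multiciliated3 for each gene (diamond, at 0) and its tested neighbours within 500 kb (circles), against the distance along the chromosome in kb from the lower end of the gene to the near end of the neighbour, with standard errors. The neighbours lie near 0 except *Sectm1a* at -1.25.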

How the data were processed

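The authors prepared 10x libraries from dissociated cultures, processed reads with Cell Ranger (version 7.1.0 and genome mm10 per the submitters' processing notes; the paper gives another version) and filtered and clustered cells with Seurat, leaving out cells with many genes as potential doublets. They deposited UMI counts, not normalized, for each gene in each cell, and a table of cell types. Both tables separate values by a mistyped tab and were read with that separator; 0 values were not whole and 0 cell totals differed from the cell table. Whether intronic reads were counted, and the strand setting, are not given in the sources used here. No doublet caller was run.

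Counts were summed per mouse and cell type. The plan named a quasi-likelihood count test. Because of the separator the table could not be recorded as counts, so the fallback of that plan, limma 3.58.1 (R 4.3.3) with voom weights, was used. Genes needed 10 counts in a library of median size in 3 mice and a total of 15. TMM factors used trims of 0.3 and 0.05, and Benjamini-Hochberg adjustment covered all genes tested, with a threshold of 0.05. The pipeline was tested on simulated data. Replicates are separate mice. The rest was done in Python 3.11.15 (pandas 2.3.3, matplotlib 3.10.9, numpy 2.4.6, scipy 1.17.1). Named genes were the 3, *Dnaaf5*, fixed lists and, for likeness, the 5 highest r among genes reaching 10 CPM in a cell type; *Wdfy1* was named for its call. The members and lists were chosen with earlier results of these data known. Intervals cover counting error only.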

Additional observations from a re-analysis of the deposited data

Results flagged for a closer look

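*Sult1d1* overlapped between the genotypes in 11 of the 14 cell types with cells of all mice, and the other 3 did not share a direction. All *MIS/MIS* mice were below all *WT/WT* mice in Basal3 (log2 ratio of the means -1.21) and above them in Multiciliated3 (0.88) and in Basal1 (2.44). The difference between these cell types was not tested, and the genotypes did not overlap for 12.6% of genes in Basal1 and 9.05% in Basal3. In Basal1 the nearest mice were at 11.2 and 11.5 CPM. Basal1 of MT1306 reached 79.6 CPM, far above the other mice, and Basal3 of WT1 reached 35.9 CPM from 107 UMIs.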

How the results depend on the processing

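The log2 fold changes of *Fank1*, *Sult1d1* and *Sectm1b* in Multiciliated3 kept their direction under median-of-ratios size factors, the stated cell filters, a minimum of 10 counts in each mouse, no filter on low counts, and, both chosen after seeing the data, limma-trend and leaving out barcodes found in more than 1 mouse. Leaving out each mouse in turn gave -0.96 to -0.85 for *Fank1*, 0.82 to 0.92 for *Sult1d1* and -0.98 to -0.72 for *Sectm1b*. Over all multiciliated cells *Sult1d1* was 1.05 without Multiciliated1 cells. The *Sectm1b* difference in the share of Multiciliated3 cells with a UMI was -7.90 percentage points in thinned cells. In secretory cells the 1 called gene was lost when any mouse was left out (0 to 0 genes). There *Sectm1b* was -0.030 with the stated cell filters, and leaving out mice gave -0.16 to 0.39 for *Sectm1b* and -0.50 to 0.33 for *Sult1d1* (0.33 without MT1301, 0.044 without MT1306, 0.11 without WT3; *Sectm1b* -0.16 without MT1383 and -0.033 without WT1). In basal cells leaving out mice gave 0.29 (without WT1) to 1.42 (without MT1301) for *Sult1d1*, -1.93 (without WT2) to -0.12 (without WT1) for *Sectm1b* and -1.21 to -0.27 for *Fank1*. The causes were not tested. The negative binomial fits of the plan were not run. No paired analysis was possible because mutant columns carry numbers of mice that correspond to no replicate in the labels.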
